A study of Mus musculus with 2 samples.

Results

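The circadian core clock was described in mouse Lewis lung carcinoma (LLC) cells through 10 genes, chosen by symbol in the array's probe annotation out of 19505 genes measured. They are the activators Arntl, Arntl2, Clock and Npas2, the repressors Per1, Per2, Per3, Cry1 and Cry2, and the nuclear receptor Nr1d1. Arntl2 was the starting point because its loss of signal was among the largest on these arrays, so its own difference is a description, and the other 9 genes are its paralogue, partners and repressors. RNA was taken from shPDLIM2 LLC cells, infected with virus carrying an shRNA against PDLIM2, and from shEmpty LLC cells, infected with virus carrying the shEmpty shRNA. Both lines are of C57BL/6 origin, share infection with polybrene and puromycin selection, and were hybridized to 1 Affymetrix Clariom S mouse array each. The knockdown line rests on 1 hairpin, which the study picked for its efficient knockdown. Whether a line is 1 clone or a pool, and when after plating or serum change the cells were harvested, could not be read from the labels or the methods.

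The mammalian clock is a feedback loop of transcription. ARNTL (BMAL1) or ARNTL2 (BMAL2) pairs with CLOCK or NPAS2, and the pair binds E-boxes and switches on the Per and Cry genes, whose proteins return to the nucleus and block the pair. A second loop runs through NR1D1 (REV-ERBα), which is switched on by the same activators and represses Arntl by binding sites that it shares with the ROR receptors. ARNTL and ARNTL2 are both bHLH-PAS proteins, and many cell types, including fibroblasts and tumor lines in culture, run this loop without a brain pacemaker.

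To show where these factors could meet the genes, promoter windows from RefSeq (GRCm38.p6), each 300 bases long with 250 before and 50 after an annotated start, were searched on both strands for 5 motifs. These were the E-box CACGTG, its variant CACGTT, the D-box TTATGTAA, the REV-ERB/ROR core site AGGTCA and the cyclic AMP element TGACGTCA. Of all 32851 windows, 7.15% held the E-box, 4.69% its variant, 0.94% the D-box, 16.3% the REV-ERB/ROR site and 1.79% the cyclic AMP element. Windows were found for 9 of the 10 genes, all but Per2, and 7 genes had at least 1 match. The matches shown here, 1 for each of 5 members described below, are in lower case with the matched letters in capitals, 30 bases each, and read on the strand of the gene.
Arntl, REV-ERB/ROR site, chr7:113207530-113207559, + strand: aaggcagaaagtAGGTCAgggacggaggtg
Per1, E-box, chr11:69098771-69098800, + strand: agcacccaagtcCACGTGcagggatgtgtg
Cry1, E-box, chr10:85185097-85185126, - strand: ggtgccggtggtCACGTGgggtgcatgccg
Per3, D-box, chr4:151044852-151044881, - strand: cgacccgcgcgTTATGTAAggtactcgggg
Nr1d1, E-box variant, chr11:98775388-98775417, - strand: cgcacagatctcAACGTGccggctgctgga
In Nr1d1 the variant is read on the opposite strand. A match says only that the letters are present.

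Arntl2 held none of the 5 motifs in its window. Its 250 bases before the annotated start are shown because this gene carries the largest difference among the 10, and every CG dinucleotide is in capitals.
Arntl2, chr6:146805280-146805529, + strand: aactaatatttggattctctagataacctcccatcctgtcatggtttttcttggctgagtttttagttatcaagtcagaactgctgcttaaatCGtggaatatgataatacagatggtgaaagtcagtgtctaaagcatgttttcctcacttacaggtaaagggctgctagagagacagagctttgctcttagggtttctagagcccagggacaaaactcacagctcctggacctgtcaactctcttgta
This stretch held 1 CG and had a G+C content of 41.6%. In the other 12 windows of core clock genes the bases before the start held between 7 and 40 CG dinucleotides. Both Arntl windows were richer, with 16 and 20 CG and a G+C content of 58.8% and 62.8%.

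The values are the authors' log2 signals per probe set after RMA, and each of the 10 genes had 1 probe set. With 1 array per cell line there is no replicate, no error between cultures and no p-value for any gene, and precision is limited by the number of arrays. Log2 differences are shPDLIM2 minus shEmpty. Background was set at the 95th percentile of 1448 genes for chemosensory receptors, which are silent outside sensory tissue in the main, and lay at 5.26 on the shPDLIM2 array and 5.12 on the shEmpty array. As a measure of probe noise, the spread of 1 probe set's difference was 0.35 (SD), taken from 48 genes with 2 probe sets. It was not split by signal level and may not hold for bright genes. Over all genes, 43.5% had an absolute difference above that spread, and so did 45.3% of the 9509 genes above background on both arrays.

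Pdlim2, the knockdown target, had a log2 signal of 8.33 in shPDLIM2 cells and 10.04 in shEmpty cells, which is 3.27-fold lower in the knockdown. Of 5 mesenchymal markers measured, Vim and Fn1 were bright on both arrays, and Col1a1 and Col1a2 were at background on both. Pdgfrb passed the level on the shPDLIM2 array alone. Of 6 epithelial markers, Krt8 and Krt18 were above background on both arrays while Epcam and Cdh1 were not on either. All 6 epithelial markers were lower in shPDLIM2 cells, where 49% of all genes were, but only Krt8 and Krt18 were above background on both arrays. Krt18 was at a log2 difference of -0.91 and Krt19 at -1.15. Krt19 was above background only in shEmpty cells, and Cldn4, at -1.48, was at background on both arrays. The summed linear signal of the epithelial markers was 2668 in shPDLIM2 cells and 4953 in shEmpty cells, of which Krt18 alone made up 93.9% in shPDLIM2 cells and 95% in shEmpty cells. For the mesenchymal markers the sum was 761343 in shPDLIM2 cells and 810146 in shEmpty cells. Vim made up 94.7% of it in shPDLIM2 cells and 95.4% in shEmpty cells. The sum of 4 leukocyte markers was 123 in shPDLIM2 cells and 97 in shEmpty cells. That of 4 endothelial markers was 92 in shPDLIM2 cells and 70 in shEmpty cells. Of the leukocyte markers Ptprc, Csf1r and Cd3e, and of the endothelial ones Cdh5, Kdr and Tek, were at background on both arrays, while Adgre1 and Pecam1 passed the level on the shPDLIM2 array alone. The part of these shifts in the clock values was not tested. In RNA of whole cultures, fewer cells expressing a gene and less RNA per cell cannot be told apart.

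Of the 10 core clock genes, 8 were above background on both arrays and Npas2 and Per3 were on neither. Arntl2 alone was at least 2-fold lower in shPDLIM2 cells, where 2.01% of all genes were, and this count was used to choose it. None was at least 2-fold higher, where 1.74% of all genes were. In all, 4 genes were lower and 6 were higher, where 49% and 50% of all genes were, and the median log2 difference was 0.15, beside 0.01 over all genes. The 8 genes above background, again with Arntl2 among the lower ones, were split evenly, 4 lower and 4 higher. Their median was -0.08, beside -0.06 over all genes above background on both arrays. Of such genes 1.11% were at least 2-fold higher. In the deposited values the sign of the median therefore differed between the 10 genes and the 8 above background. The median of the 8 lay midway between Cry2 at -0.24 and Per1 at 0.09. After quantile normalization these 2 were at -0.15 and 0.18, so its sign also turned on the scaling. The absolute difference passed the probe spread in 6 of the 10 genes, where it did in 43.5% of all genes. Among these 6 were Arntl2 and also Npas2, which was at background. Of the 8 genes above background 5 passed it, where 45.3% of all such genes did.

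**Figure D1:**
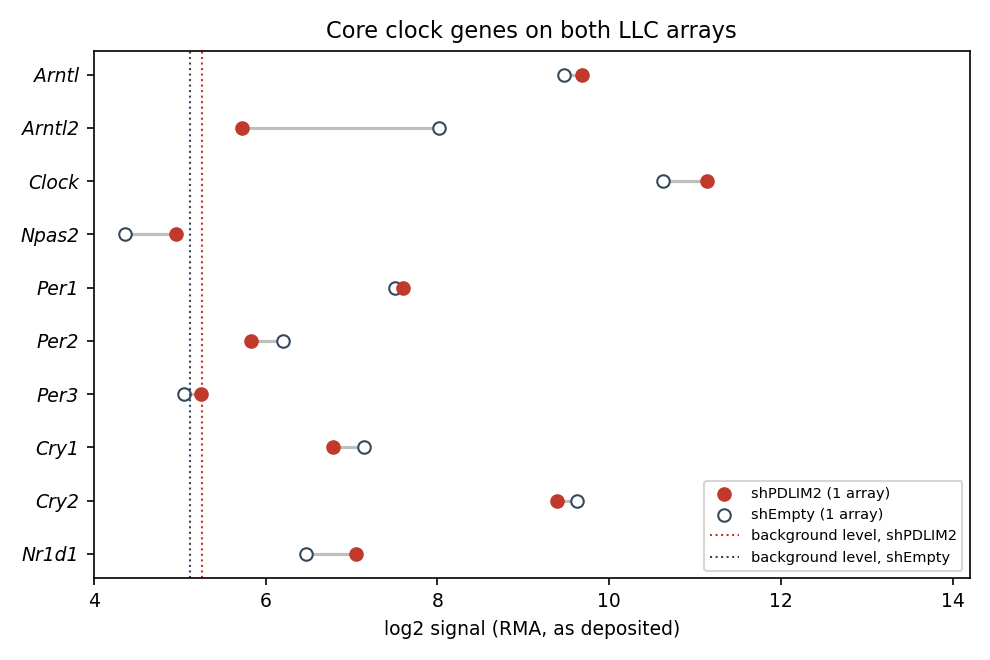
Log2 signal (x axis) of each core clock gene on the shPDLIM2 array (filled) and on the shEmpty array (open), joined by a line; dotted lines are the background level of each array, and levels of different genes are not comparable on this scale. Arntl2 has a filled point at 5.72 and an open point at 8.02, and no other line is longer than 0.60.

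Among the activators, Arntl2 had a log2 signal of 5.72 in shPDLIM2 cells and 8.02 in shEmpty cells. This is a log2 difference of -2.30, that is 4.92-fold less signal. Only 2 of all 19505 genes had a lower difference, and among genes above background on both arrays only 1. The shPDLIM2 signal was close to background. It lay 0.46 above the level used here, whereas the shEmpty signal lay 2.90 above it. On the shPDLIM2 array 21 of the 1448 receptor genes, or 1.45%, had a higher signal than Arntl2, and on the shEmpty array 0 did. Set against the 99th percentile of the receptor genes, 5.82, which the shPDLIM2 signal did not reach, Arntl2 was at least 4.59-fold lower.

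Its paralogue Arntl, without which mice lose their behavioural rhythm, did not share this difference. Arntl had log2 signals of 9.68 in shPDLIM2 cells and 9.47 in shEmpty cells, a log2 difference of 0.21 that was within the probe spread. Relative to Arntl, Arntl2 thus differed by -2.51 between the arrays. The REV-ERB/ROR motif printed for Arntl was not matched in the Arntl2 window. Of all windows 16.3% held it, and a part of this motif in the difference between the paralogues was not tested.

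Clock, the bHLH-PAS partner of both ARNTL proteins, had log2 signals of 11.14 in shPDLIM2 cells and 10.63 in shEmpty cells. The log2 difference of 0.51, or 1.42-fold higher, passed the probe spread. Npas2, which can take the place of CLOCK, had 4.96 in shPDLIM2 cells and 4.36 in shEmpty cells, both below background, so its difference of 0.60 has no fold. Of the 3 activators other than Arntl2, only Clock was thus both above background and past the probe spread.

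The differences of the PER and CRY repressors all lay between -0.37 and 0.20. Per2, needed for a lasting rhythm in mice, had log2 signals of 5.83 in shPDLIM2 cells and 6.20 in shEmpty cells, a log2 difference of -0.37. Its shPDLIM2 signal was close to background, 0.57 above the level used here. Cry1, the stronger of the CRY repressors, had 6.78 in shPDLIM2 cells and 7.15 in shEmpty cells, also a difference of -0.37. Both were 1.29-fold lower, at the edge of the probe spread of 0.35.
Cry2 had 9.39 in shPDLIM2 cells and 9.63 in shEmpty cells, a difference of -0.24. Per1, an early gene that also responds to cyclic AMP and glucocorticoids, had 7.60 in shPDLIM2 cells and 7.51 in shEmpty cells, a difference of 0.09. Both were within the probe spread. Per3, whose loss leaves the loop running in mice, had 5.25 in shPDLIM2 cells and 5.05 in shEmpty cells, below background on each array. Of the 5 repressors 3 were lower and 2 higher, around a median of -0.24. Per1 and Cry1, which both hold the E-box shown above, were at 0.09 and -0.37.

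Nr1d1, the REV-ERBα repressor of Arntl, had log2 signals of 7.05 in shPDLIM2 cells and 6.47 in shEmpty cells. Its log2 difference of 0.58, or 1.49-fold higher, was the largest positive one of the 8 core clock genes above background. Its paralogue Nr1d2 (REV-ERBβ) had 9.44 in shPDLIM2 cells and 8.56 in shEmpty cells, a difference of 0.88 or 1.84-fold higher. Both REV-ERB genes were thus higher in shPDLIM2 cells by more than the probe spread. Arntl, which they repress, was at 0.21.

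**Figure D2:**
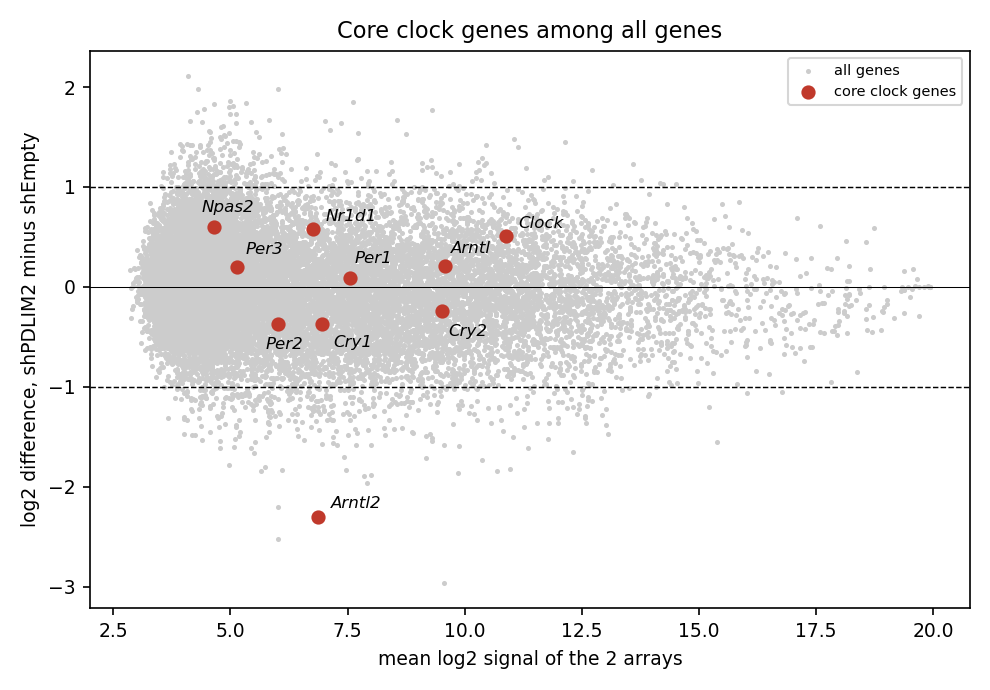
Log2 difference, shPDLIM2 minus shEmpty (y axis), against the mean log2 signal of both arrays (x axis) for all 19505 genes (grey) and the core clock genes (red); dashed lines are a 2-fold difference. Arntl2 lies at -2.30 below nearly all grey points, and the other core clock genes lie between -0.37 and 0.60, inside the dashed lines.

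The factors of the stabilising loop and of the D-box, which tie these genes together, went both ways. Of 10 measured, 6 were higher and 4 lower in shPDLIM2 cells, where 50% and 49% of all genes were. The median log2 difference was 0.27. None differed 2-fold, where 2.01% of all genes were at least 2-fold lower and 1.74% at least 2-fold higher. Of the 5 above background on both arrays 3 were higher and 2 lower, where 44.4% and 54.7% of such genes were. Their median was 0.29. Dbp, an activator at D-boxes and a classic direct target of CLOCK and ARNTL, had 9.28 in shPDLIM2 cells and 9.95 in shEmpty cells, a difference of -0.67 or 1.59-fold lower. Nfil3 (E4BP4), which represses at the same D-boxes, had 9.34 in shPDLIM2 cells and 8.81 in shEmpty cells, a difference of 0.53 or 1.44-fold higher. The D-box activator and the D-box repressor therefore differed in opposite directions, each by more than the probe spread.
The bHLH repressors that compete at E-boxes also parted. Bhlhe41 (DEC2) had 9.66 in shPDLIM2 cells and 10.22 in shEmpty cells, a difference of -0.56, and Bhlhe40 (DEC1) had 7.45 in shPDLIM2 cells and 7.16 in shEmpty cells, a difference of 0.29 within the probe spread. Rora, Rorb, Tef and Hlf were at background on both arrays, and Ciart passed it only on the shPDLIM2 array, at 5.27 against 5.03 in shEmpty cells.

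Kinases and ubiquitin ligases that set the life of PER and CRY proteins, with TIMELESS, TIPIN and CIPC, held the other gene past 2-fold. Of 15 measured, 8 were higher and 7 lower, where 50% and 49% of all genes were, around a median of 0.02. Among the higher ones Prkaa2 at 0.93 and Usp2 at 0.68 were at background on both arrays. Of the 13 above background on both arrays 6 were higher and 7 lower, where 44.4% and 54.7% of such genes were. Their median was -0.18. Tipin had 8.22 in shPDLIM2 cells and 9.42 in shEmpty cells, a difference of -1.20 or 2.30-fold lower. Its partner Timeless had 7.10 in shPDLIM2 cells and 7.65 in shEmpty cells, a difference of -0.55. These 2 proteins are best known in mammals as a pair that protects replication forks, besides their debated part in the clock. Among the 9509 genes above background on both arrays, 2.78% were at least 2-fold lower, and 1 of 13 in this list was.
The casein kinases that mark PER for turnover differed little, with Csnk1d at 0.02, Csnk1e at -0.19 and Csnk1a1 at -0.22. Gsk3b, a kinase of several clock proteins, was at 0.45 with 13.14 in shPDLIM2 cells and 12.69 in shEmpty cells. Prkaa1, the AMPK subunit that marks CRY for turnover, was at -0.42 with 11.32 in shPDLIM2 cells and 11.74 in shEmpty cells. Btrc, the F-box protein that takes PER to the proteasome, was at -0.41, and its close relative Fbxw11 at 0.06.

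Differences of the clock cofactors were small, and 6 of 8 were within the probe spread. Of the 8 measured, all above background, 7 had positive differences with a median of 0.23, where 44.4% of genes above background were higher; the exception Kdm5a, at -0.03, was at 0.08 under quantile normalization and at 0.06 without the lowess trend. Crebbp and Ep300, the acetyltransferases that CLOCK and ARNTL recruit, were at 0.47 and 0.32, and Wdr5 and Nono, which associate with PER proteins, were at 0.37 and 0.26. Only Crebbp and Wdr5 passed the probe spread, where 45.3% of all genes above background on both arrays did.

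Genes described as outputs of the clock went both ways. Of 9 measured, 5 were higher and 4 lower, where 50% and 49% of all genes were, around a median of 0.06. But 3 were at background on both arrays. Of the 6 above background on both arrays 4 were higher and 2 lower, where 44.4% and 54.7% of such genes were. Their median was 0.17. Noct (nocturnin), whose RNA cycles in many tissues, had 6.85 in shPDLIM2 cells and 7.61 in shEmpty cells, a difference of -0.76 or 1.69-fold lower. Alas1, the first enzyme of heme synthesis, was at -0.42, the cell cycle inhibitor Cdkn1a at 0.39 and the mitotic inhibitor kinase Wee1 at 0.36. Smoc2, a secreted matrix protein placed downstream of Arntl2 in mouse lung adenocarcinoma, was at background on both arrays, with 3.96 in shPDLIM2 cells and 4.01 in shEmpty cells.

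No other gene of the bHLH-PAS family, to which ARNTL2, CLOCK and NPAS2 belong, came near the difference of Arntl2. Of 15 measured, 11 were higher and 4 lower in shPDLIM2 cells, where 50% and 49% of all genes were, around a median of 0.17. But 7 were at background on both arrays, among them Npas4, which was at 0.03 and at -0.03 after quantile normalization. Of the 8 above background on both arrays, 6 were higher, where 44.4% of all such genes were. Among these 6, Ahrr lay only 0.09 and Arnt2 only 0.35 above the level in shPDLIM2 cells. In shEmpty cells Ahrr lay 0.02 and Arnt2 0.17 above it. Over genes past the 99th percentile of the receptor genes on at least 1 array, the list median was 0.045. Ncoa1, a nuclear receptor coactivator with bHLH and PAS domains, had the largest difference of these at -0.58, with 7.25 in shPDLIM2 cells and 7.83 in shEmpty cells. Arnt2 was at 0.32, Hif1a at 0.30 and Ncoa2 at 0.30, all within the probe spread. Arnt, the common partner of the family, was at 0.01.

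**Figure D3:**
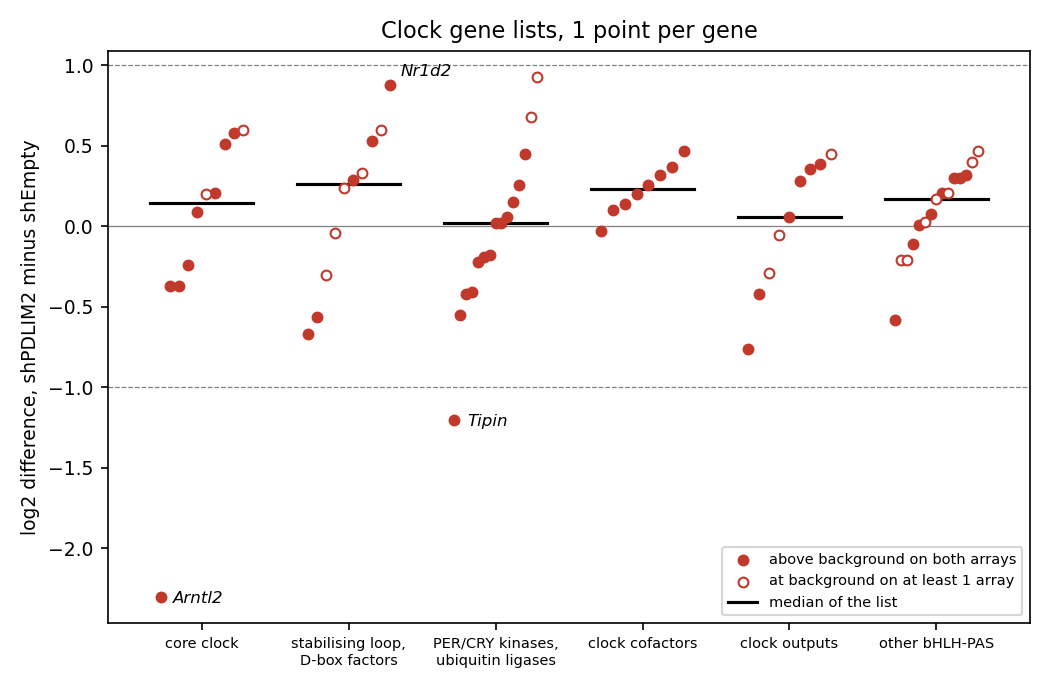
Log2 difference, shPDLIM2 minus shEmpty (y axis), of every measured gene in 6 lists (x axis), filled where above background on both arrays and open otherwise; black bars are list medians and dashed lines a 2-fold difference. Only Arntl2, at -2.30, and Tipin, at -1.20, lie past a dashed line, and every median lies between 0.02 and 0.27.

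The measured genes on either side of Arntl2 on chromosome 6, taken from the gene order in RefSeq, did not share the size of its difference. Of the 5 on each side, 7 were above background on both arrays, and their differences ran from -0.73 for Ppfibp1 to 0.53 for Med21. Of these 7, 5 were lower and 2 higher in shPDLIM2 cells, around a median of -0.47. Stk38l, the measured gene next to Arntl2 on one side, was at -0.47, and Smco2, next on the other, was at background on both arrays. After these values were seen the stretch was widened to 10 genes on each side, which takes in Bhlhe41. There 14 genes were above background on both arrays, of which 11 were lower in shPDLIM2 cells, where 54.7% of all genes above background were. Their median log2 difference was -0.49, beside -0.06 over all such genes, and none was 2-fold lower. DNA copy number was not measured here.

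**Figure D4:**
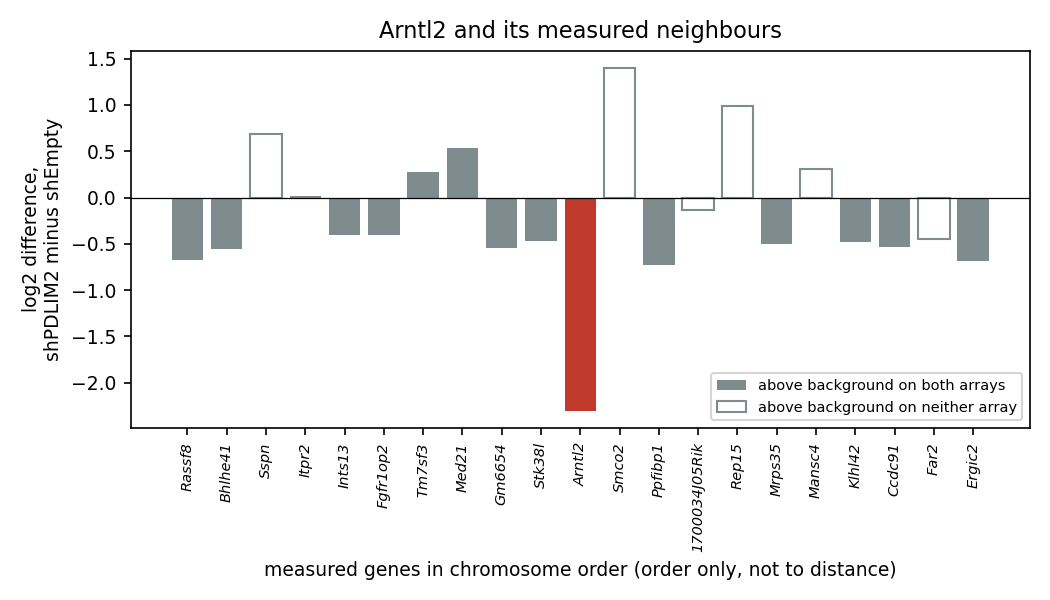
Log2 difference, shPDLIM2 minus shEmpty (y axis), of Arntl2 (red) and the 10 measured genes on each side of it in chromosome order (x axis); filled bars are genes above background on both arrays and open bars genes above it on neither. Filled neighbours lie between -0.73 and 0.53, against -2.30 for Arntl2.

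The genes whose readings were nearest to those of Arntl2 on both arrays, by Euclidean distance between the pairs of log2 signals, were S100a1, Pld2, Tubgcp3, Spast and Prkag2. This likeness rests on 2 arrays and on readings of different probe sets. S100a1, a calcium-binding protein, had 6.18 in shPDLIM2 cells and 7.75 in shEmpty cells, at a distance of 0.53, and Prkag2, a regulatory subunit of AMPK, had 6.40 in shPDLIM2 cells and 7.96 in shEmpty cells, at a distance of 0.68. The log2 differences of the 5 ran from -1.57 to -1.34, smaller in size than that of Arntl2.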

How the data were processed

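The authors deposited log2 signals for each probe set of the 2 Clariom S arrays, to 2 decimals. RMA and the Transcriptome Analysis Console are named in the submitters' notes, without versions. The sources used here name no genome build and do not say whether the arrays were normalized to each other. Of 22206 probe sets, 19572 had 1 gene symbol in the platform annotation, and 2634 without one were not used. For 55 genes with several probe sets the mean was taken. Symbols are those of the annotation; promoter sequences and gene order come from RefSeq GRCm38.p6.

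No test was run, since each group had 1 array. Members and lists were chosen with earlier results of these data known. All 10 core clock genes were named and, of each other list, the 4 members above background with the largest absolute difference and any past 2-fold; other members (among them Csnk1d, Csnk1e, Csnk1a1, Btrc, Fbxw11, Bhlhe40, Smoc2 and Arnt) were named after their values were seen. Some genes of the lists are not reported here. Centring and removal of a lowess trend were checked on simulated arrays with known shifts. The background level, the probe spread, the list counts, the neighbours and the motif search were not part of that check. Alternatives were centring, quantile normalization, removal of a lowess trend (fraction 0.3), stricter background filters, the brightest probe set and a 1.5-fold threshold. Python 3.11.15, numpy 2.4.6, pandas 2.3.3, statsmodels 0.14.6 and matplotlib 3.10.9 were used.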

Additional observations from a re-analysis of the deposited data

How the results depend on the processing

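The 8 core clock genes above background kept their sign under every alternative run, and Npas2 and Per3 under those that did not remove them, since both background filters did. The log2 difference of Arntl2 ran from -2.31 to -2.22, that of Clock from 0.50 to 0.58 and that of Nr1d1 from 0.57 to 0.67. The count of core clock genes at least 2-fold lower was 1 in each setting. That of genes at least 2-fold higher was 0 except at a 1.5-fold threshold, where it was 1, Npas2 at background; at 0.58 Nr1d1 lay just under that limit. The median of the core clock genes was 0.15 and became -0.08 over genes above background on both arrays; without Arntl2, an alternative added after the values were seen, it was 0.20. Among the other lists, the median of the kinases and ubiquitin ligases changed sign, between -0.18 and 0.08. No paired analysis was possible because each group has 1 array. Signals near background, as for Npas2 and Per3, and for Arntl2 and Per2 in shPDLIM2 cells, limit what the arrays resolve.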

Other observations

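Promoter windows with the E-box CACGTG were looked at beyond the core clock, as values across genes, which are not independent replicates. Of the clock-related genes listed, 10 held it, and 6 of these were above background on both arrays: Bhlhe41 at -0.56, Cry1 at -0.37, Per1 at 0.09, Sirt1 at 0.14, Cipc at 0.26 and Hif1a at 0.30. Their median log2 difference was 0.12. Over all genes above background on both arrays and with a promoter window, 7812 in number, 54.7% were lower in shPDLIM2 cells with a median of -0.06. Of the 921 with the E-box 48.5% were lower, with a median of 0.01. Of the 498 with the variant CACGTT 57.4% were lower, with a median of -0.12. With the D-box 60% of 45 genes were lower, with the REV-ERB/ROR site 54.9% of 1126, and with the cyclic AMP element 51.6% of 285. No test was run on these shares, and a motif says nothing of which factor is bound.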
